A study of Saccharomyces cerevisiae with 8 samples.

Results

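The genes described here are the yeast autophagy genes that carry an ATG name followed by a number. They were chosen by symbol in the array's probe annotation, which gave 36 genes with 39 probe sets among 5656 annotated genes, and 1 probe set was kept for each gene, a plain gene-specific set first and then the one with the highest mean. All 36 had a gene-specific probe set, and all 36 passed the filter on low signal. VPS30, also called ATG6, and SNX4, also called ATG24, appear under other symbols and are counted among the partner genes below.

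RNA came from diploid Saccharomyces cerevisiae of the SK1 background, a laboratory background that sporulates readily, in 4 strains that the labels give as wild type, mre11delta, rad50delta and spo11Y135F. Spo11 is the enzyme that cuts DNA to start meiotic recombination, and Mre11 and Rad50 work together in making and processing those cuts. Cells were grown in presporulation medium with acetate as carbon source and harvested at 0 h, or moved to potassium acetate sporulation medium with a reduced supply of amino acids and harvested at 4 h. Each strain and time has 1 array of a single colour, 8 in all, so a value of a single strain carries no error. In bulk RNA of this kind, fewer cells of a type and less RNA per cell cannot be told apart. No other allele is listed in the labels used here, and each genotype is represented by 1 strain.

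Autophagy encloses part of the cell in a double membrane, the autophagosome, and delivers it to the vacuole for breakdown. Bulk autophagy is switched on by starvation, when the nutrient-sensing kinase complex TORC1 is inactive, and selective forms pick cargo through receptors that bind the small protein Atg8. Yeast cells need autophagy to sporulate, a process that starts in the absence of nitrogen and glucose.

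The arrays as a whole set several limits. The median signal of an array ran from 97.3 to 196.4 and the deposited values were used with no further scaling, so that the median gene had a log2 change of 0.19 from 0 h to 4 h as deposited, -0.21 with median centring and -0.09 with quantile normalization. RNA was extracted with Trizol for wild type at 0 h and for both arrays labelled mre11delta, and with glass beads and RNeasy columns for the other 5 arrays, so wild type is the only strain whose 2 arrays differ in extraction. The RAD50 signal was 0.6 and 3.4 in rad50delta and at least 88.4 elsewhere, while the MRE11 signal of 84.0 and 108.0 in the arrays labelled mre11delta lay inside the range of 45.0 to 192.4 of the other 6 arrays. Every statement on mre11delta therefore rests on the label. URA3 read 4.4 and 2.5 in rad50delta. In the other strains it read 357.2 to 496.2 at 0 h and 14.8 to 273.0 at 4 h. Whether rad50delta differs from the other strains at further loci was not tested. All 8 markers of meiotic prophase, such as HOP1 and DMC1, passed the test as higher at 4 h, with summed signals of 134 to 582 at 0 h and 8220 to 15568 at 4 h.

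Signals were put on a log2 scale after adding a pseudocount of 7, and the change over time is the 4 h value minus the 0 h value, averaged over the 4 strains, with its standard error (SE) from limma. Folds are taken on that scale and understate changes of dim genes. For the SE and p, limma draws the variance of each gene toward that of genes of similar signal. The SE is therefore not the gene's own spread between strains. ATG36, with log2 changes from -2.08 to 3.18 in single strains, has an SE of 0.66. ATG12, with changes from 0.76 to 1.30, has one of 0.50. A gene rose or fell where the limma adjusted p, over all 5475 genes tested, was under 0.05. Per-strain values are given in the order wild type, mre11delta, rad50delta and spo11Y135F throughout.

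From 0 h to 4 h, 13 of the 36 ATG genes rose and 0 fell by limma, and at an unadjusted p under 0.05 the counts were 17 higher, against 18.2% of all genes tested, and 1 lower, against 8.84%. After adjustment the share that rose was 36.1%, and over all genes tested it was 10.6%, with 4.02% falling. The median log2 change of the 36 genes was 1.11, and with median centring it was 0.72 and with quantile normalization 0.77, in each case above the median gene. The groups did not overlap, with every 4 h signal above every 0 h signal, for 13 members, also 36.1%, against 14.4% of all genes tested, and 9 of these were among the 13 that rose. In the other direction 0 members had groups that did not overlap, against 5.41% of all genes tested. In 19 members the 4 h signal was the higher one in all 4 strains, which is 52.8% against 21.9% of all genes tested, and 0 members were lower in all 4, against 10.8%.

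**Figure D1:**
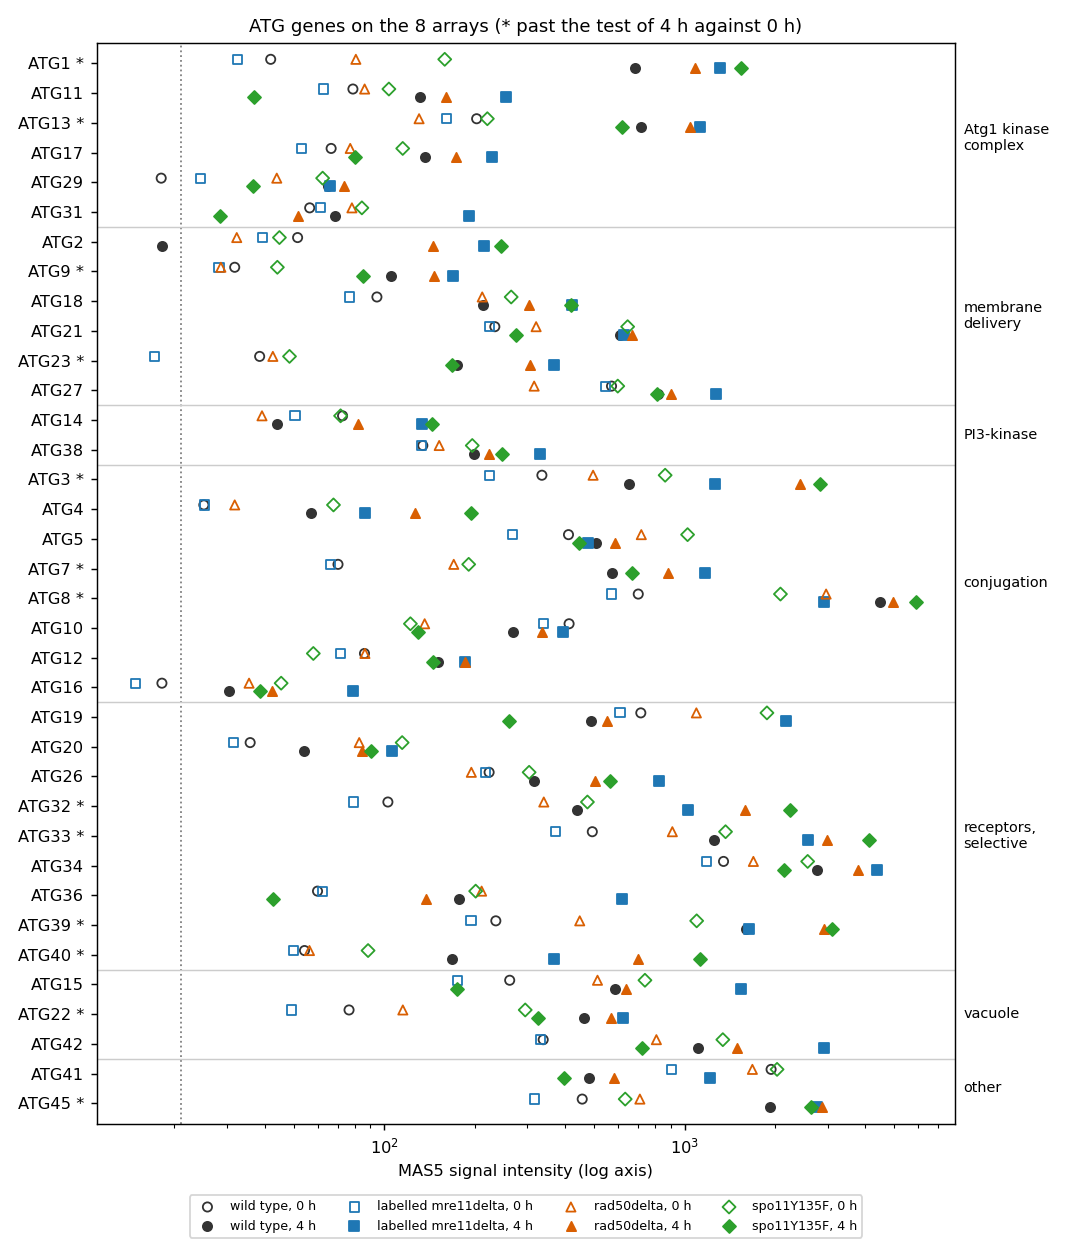
MAS5 signal of the 36 ATG genes on a log axis, with 1 point per array, open symbols for 0 h, filled symbols for 4 h and symbol shape and colour for the strain. Asterisks mark the 13 genes that rose by limma, and the dotted line marks the signal floor of 21. For ATG1 the 4 h points lie far to the right of the 0 h points, while for ATG41 most lie to the left.

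The Atg1 kinase and its partners start the formation of the autophagosome, and of these 6 genes 2 rose and 4 did not pass the test. Here and in the role groups below, such counts stand against 10.6% of all genes tested that rose. The groups are too small to be compared with each other. ATG1 (YGL180W), the protein kinase itself, read 41.9, 32.5, 80.5 and 159 at 0 h and 684, 1309.5, 1083 and 1539 at 4 h. The groups are far apart, with the lowest 4 h signal several times the highest 0 h signal. ATG1 rose by 3.93 ± 0.56 (SE, n = 4 strains) in log2, a 15.3-fold increase (limma adjusted p = 4.15e-05), the largest change among the 36 genes and the 91st highest of the 5475 genes tested.

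ATG13 (YPR185W), the regulatory subunit that TORC1 phosphorylates, read 203, 161, 131 and 221 at 0 h and 716, 1129, 1045 and 618 at 4 h. The groups do not overlap. ATG13 rose by 2.23 ± 0.57 (limma adjusted p = 0.00969), and it no longer passed when wild type (adjusted p = 0.0516) or rad50delta (adjusted p = 0.105) was left out, or with extraction as a covariate (adjusted p = 0.0521).

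The scaffold subunits moved less. ATG17 (YLR423C), which bridges the kinase complex in starvation, read 66.6, 53.0, 77.1 and 115 at 0 h and 136, 229, 174 and 79.9 at 4 h. Its partners ATG29 (YPL166W) and ATG31 (YDR022C) had log2 changes of 0.68 ± 0.52 and -0.03 ± 0.54. ATG11 (YPR049C), the scaffold of selective autophagy, had a change of 0.53 ± 0.56 (limma adjusted p = 0.575). In all 4 of these genes the spo11Y135F array was lower at 4 h than at 0 h, with log2 differences from -0.49 in ATG17 to -1.36 in ATG31, while the arrays labelled mre11delta differed by 1.21 to 1.98.

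Of 6 genes that bring membrane and lipid to the growing autophagosome, 2 rose and 4 did not pass the test. ATG23 (YLR431C), a peripheral protein that travels with Atg9, read 38.5, 17.2, 42.6 and 48.4 at 0 h and 175, 368, 307 and 168 at 4 h. ATG9 (YDL149W), the membrane protein of the vesicles that seed the autophagosome, read 31.8, 28.2, 28.6 and 44.1 at 0 h and 106, 170.1, 147 and 84.9 at 4 h. Neither gene has overlapping groups. ATG23 rose by 2.57 ± 0.53 (limma adjusted p = 0.00186) and ATG9 by 1.71 ± 0.51 (limma adjusted p = 0.0246). ATG9 no longer passed with a signal floor of 70 (adjusted p = 0.0545), and leaving out wild type, the strain labelled mre11delta or rad50delta gave adjusted p of 0.0895, 0.0915 and 0.178. With extraction as a covariate its adjusted p was 0.0895. ATG27 (YJL178C), another protein of the Atg9 vesicles, had a smaller change of 0.91 ± 0.56 with groups that did not overlap.

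ATG2 (YNL242W), the lipid transfer protein, read 51.5, 39.3, 32.3 and 44.8 at 0 h and 18.2, 214, 146 and 245 at 4 h. Wild type stands alone, as its 4 h signal was below the floor of 21 and below its own 0 h signal, while the other 3 strains differed by 1.96 to 2.28 in log2. The change over all 4 strains was 1.32 ± 0.58 (limma adjusted p = 0.143), and without wild type it was 2.17 (adjusted p = 0.0361). ATG18 (YFR021W), the phosphoinositide-binding partner of Atg2, was higher at 4 h in all 4 strains, with a change of 1.15 ± 0.55 (limma adjusted p = 0.179). ATG21 (YPL100W), a relative of Atg18, read 234, 224, 321 and 647 at 0 h and 611, 630.4, 668 and 274 at 4 h, so that the other 3 strains were close together at 4 h and spo11Y135F lay below them.

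The 2 genes measured for the phosphatidylinositol 3-kinase complex of autophagy did not pass the test. ATG14 (YBR128C), the subunit that directs the kinase to autophagy, had a change of 0.63 ± 0.52, and ATG38 (YLR211C), a linker subunit, one of 0.66 ± 0.53. By limma 0 of the 2 rose or fell, also at an unadjusted p under 0.05. ATG38 was nonetheless higher at 4 h on every array, with 133 to 197 at 0 h and 199 to 329 at 4 h.

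Atg8 and Atg12 are small proteins that are attached to their targets in the way ubiquitin is, and of the 8 genes of these reactions 3 rose. All 3 act on the Atg8 branch, although ATG7 serves both branches. ATG8 (YBL078C), which is joined to a membrane lipid, read 702, 569.7, 2961 and 2087 at 0 h and 4484, 2904, 4932 and 5900.2 at 4 h. The groups overlap, because rad50delta at 0 h was slightly above the array labelled mre11delta at 4 h. ATG8 rose by 1.81 ± 0.46 (limma adjusted p = 0.00914), and the strains ranged from a log2 change of 0.73 in rad50delta to 2.66 in wild type. It no longer passed with wild type left out (adjusted p = 0.0964), with extraction as a covariate (adjusted p = 0.101) or with median centring (adjusted p = 0.0932).

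ATG7 (YHR171W), the activating enzyme, read 70.2, 66.1, 171 and 191 at 0 h and 574, 1166, 879 and 671 at 4 h. The groups lie well apart, and ATG7 rose by 2.75 ± 0.57 (limma adjusted p = 0.00199), a 6.74-fold increase. ATG3 (YNR007C), the enzyme that transfers Atg8 to the lipid, read 335, 225, 496 and 862 at 0 h and 655, 1261, 2429 and 2827 at 4 h. Each strain was higher at 4 h, while the groups overlap through spo11Y135F at 0 h and wild type at 4 h. ATG3 rose by 1.85 ± 0.55 (limma adjusted p = 0.0259), and leaving out wild type, the strain labelled mre11delta or rad50delta gave adjusted p of 0.0517, 0.0951 and 0.189, and extraction as a covariate 0.0558.

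ATG4 (YNL223W), the protease that trims Atg8, was higher at 4 h in all 4 strains but just missed the threshold, with a change of 1.44 ± 0.49 (limma adjusted p = 0.0540). It passed with a pseudocount of 30 (adjusted p = 0.0476) and with all probe sets of each gene averaged (adjusted p = 0.0486). On the Atg12 branch none of the other genes passed. ATG12 (YBR217W) read 58.1 to 86.3 at 0 h and 145 to 186 at 4 h, groups that do not overlap, with a change of 1.08 ± 0.50 (limma adjusted p = 0.163). ATG10 (YLL042C), the enzyme that transfers Atg12, had a change of 0.23 ± 0.55, ATG5 (YPL149W), its target, one of -0.09 ± 0.58, and ATG16 (YMR159C), which binds Atg5, one of 0.64 ± 0.52. ATG16 was dim, at 14.9 to 45.4 at 0 h and 30.5 to 78.9 at 4 h.

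**Figure D2:**
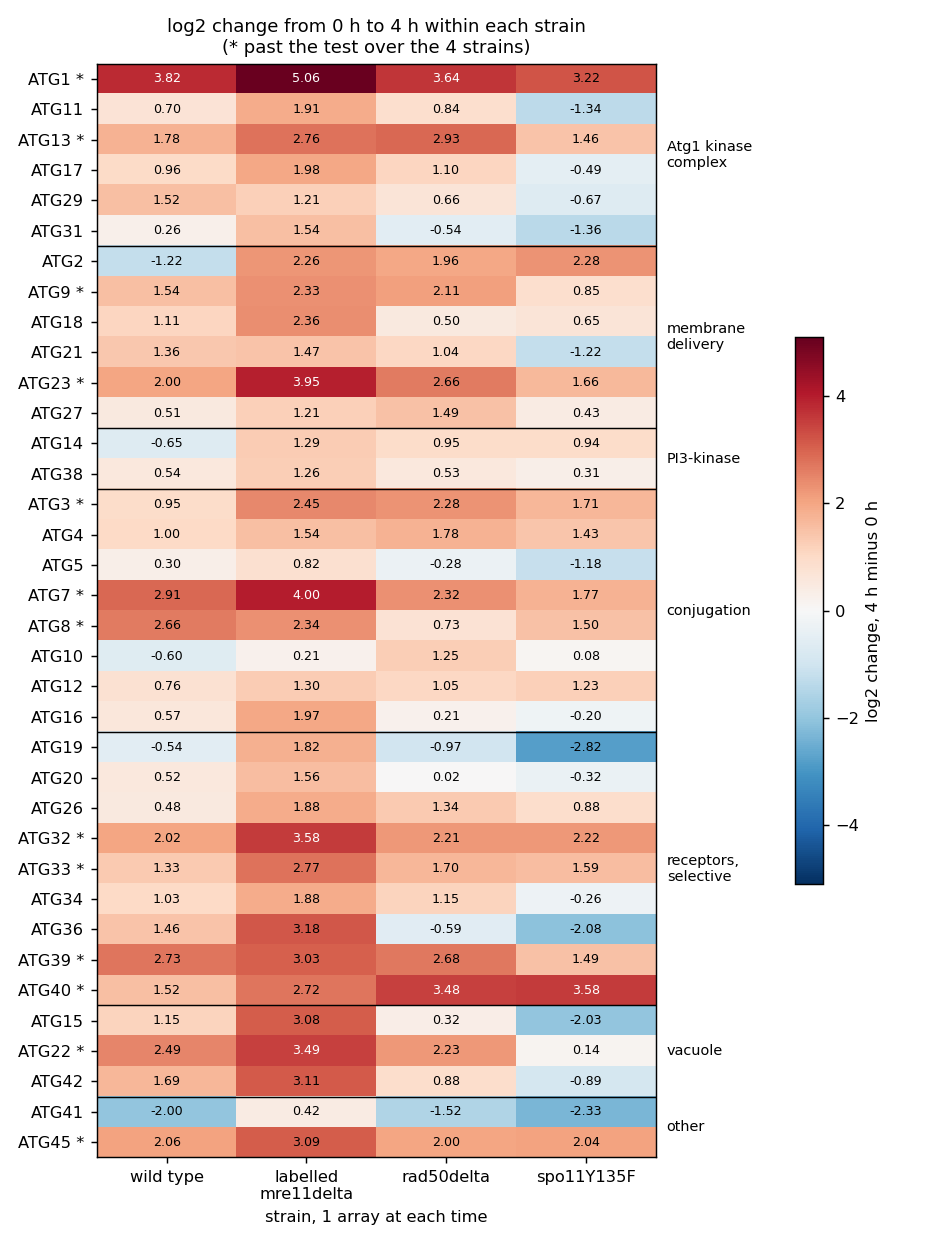
Log2 change from 0 h to 4 h of the 36 ATG genes in rows, grouped by role, within each of the 4 strains in columns, with 1 array at each time. Red is higher at 4 h and blue lower. The column labelled mre11delta holds no negative value, and the spo11Y135F column holds 14.

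Among 9 genes of cargo receptors and selective autophagy, 4 rose and 5 did not pass the test. The 4 act on mitochondria and on the endoplasmic reticulum. ATG40 (YOR152C), a receptor for the endoplasmic reticulum, read 54.3, 49.8, 56.4 and 88.4 at 0 h and 169, 367, 703 and 1130.0 at 4 h. The 0 h signals were close together, and the 4 h signals spread with wild type lowest and spo11Y135F highest. ATG40 rose by 2.82 ± 0.54 (limma adjusted p = 0.00106).

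ATG39 (YLR312C), a receptor for the nuclear envelope and the surrounding endoplasmic reticulum, read 235, 195, 448 and 1098 at 0 h and 1605, 1645, 2909 and 3093 at 4 h. Its groups do not overlap, and it rose by 2.48 ± 0.54 (limma adjusted p = 0.00304). ATG32 (YIL146C), the receptor for mitochondria, read 103, 79.1, 340.0 and 475 at 0 h and 439, 1024, 1594 and 2237 at 4 h. It was higher at 4 h in every strain, though wild type at 4 h lay below spo11Y135F at 0 h. ATG32 rose by 2.51 ± 0.57 (limma adjusted p = 0.00415). ATG33 (YLR356W), a protein of the outer mitochondrial membrane that takes part in mitophagy, read 493, 373, 911 and 1369.7 at 0 h and 1251, 2587, 2972 and 4126 at 4 h. It too was higher at 4 h in every strain, with spo11Y135F at 0 h above wild type at 4 h. ATG33 rose by 1.85 ± 0.51 (limma adjusted p = 0.0162), and leaving out wild type, the strain labelled mre11delta or rad50delta gave adjusted p of 0.0556, 0.0886 and 0.0786, and extraction as a covariate 0.0607.

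The remaining 5 genes of this group did not pass the test. ATG19 (YOL082W), the receptor that carries vacuolar hydrolases in growing cells, read 715, 609.5, 1095 and 1881 at 0 h and 488, 2177, 554 and 261 at 4 h. Within wild type, rad50delta and spo11Y135F it was lower at 4 h, by log2 differences of -0.54, -0.97 and -2.82, and it was higher by 1.82 in the arrays labelled mre11delta. The change over the 4 strains was -0.63 ± 0.65 (limma adjusted p = 0.567). In rad50delta and spo11Y135F alone, the strains with RNeasy at both times, it was -1.89 (limma adjusted p = 0.0216). That fit has only 4 arrays, and its variance is drawn toward that of other genes. A second ATG19 probe set was dim, at 2.7 to 29.7 at 0 h and 7.7 to 35.8 at 4 h, and did not enter these values. With both sets averaged the change was -0.06 ± 0.54 (limma adjusted p = 0.954).

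ATG34 (YOL083W), the paralog of ATG19 at the neighbouring locus, read 1349, 1181, 1696 and 2571 at 0 h and 2761, 4376, 3784 and 2148 at 4 h. It was higher at 4 h in 3 strains and slightly lower in spo11Y135F, with a change of 0.95 ± 0.46 (limma adjusted p = 0.189). ATG36 (YJL185C), the receptor for peroxisomes, read 60.0, 62.2, 211 and 202 at 0 h and 177, 618, 138 and 42.5 at 4 h. Its direction split evenly between the strains, and its change was 0.49 ± 0.66 (limma adjusted p = 0.673). ATG20 (YDL113C), a sorting nexin, and ATG26 (YLR189C), a sterol glucosyltransferase, had changes of 0.44 ± 0.51 and 1.15 ± 0.56.

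In the vacuole, 1 of 3 genes rose. ATG22 (YCL038C), which exports amino acids from the vacuole, read 76.4, 49.0, 115 and 295 at 0 h and 461, 622, 567 and 325 at 4 h. The groups do not overlap, but the spo11Y135F arrays differed by only 0.14 in log2. ATG22 rose by 2.09 ± 0.59 (limma adjusted p = 0.0193), a call that 7 of the 15 alternatives removed. It no longer passed with median centring (adjusted p = 0.0657), quantile normalization (adjusted p = 0.0695), extraction as a covariate (adjusted p = 0.150) or the RNeasy strains alone (1.18, adjusted p = 0.208). Leaving out wild type, the strain labelled mre11delta or rad50delta gave adjusted p of 0.153, 0.121 and 0.0739.

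ATG15 (YCR068W), the lipase that opens the delivered vesicles, read 262, 175, 513 and 738 at 0 h and 588, 1537, 641 and 175 at 4 h. ATG42 (YBR139W), a vacuolar carboxypeptidase, read 339, 332, 806 and 1342 at 0 h and 1109, 2922, 1493 and 719.7 at 4 h. Both were higher at 4 h in 3 strains and lower in spo11Y135F. Their changes were 0.63 ± 0.68 and 1.20 ± 0.61 (limma adjusted p = 0.589 and 0.218), and without spo11Y135F that of ATG42 was 1.89 (adjusted p = 0.0279). The 3 probe sets of ATG15 had the same order of strains in their log2 differences, from -2.03 to -1.44 in spo11Y135F up to 2.08 to 3.08 in the arrays labelled mre11delta.

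ATG45 (YIL024C), described elsewhere as a receptor for glycogen, read 457, 317, 710.2 and 635 at 0 h and 1922, 2756, 2859 and 2638 at 4 h. The groups lie far apart, and ATG45 rose by 2.30 ± 0.52 (limma adjusted p = 0.00399). ATG41 (YPL250C), a protein that binds Atg9, was the member with the most negative change. It read 1942, 907, 1683 and 2033 at 0 h and 479.5, 1218, 584 and 398 at 4 h, lower at 4 h in all strains but the one labelled mre11delta. Its change of -1.36 ± 0.57 did not pass (limma adjusted p = 0.122), and it passed without the arrays labelled mre11delta (-1.95, adjusted p = 0.0359), in the strains with RNeasy at both times (-1.92, adjusted p = 0.0141) and with median centring (-1.76, adjusted p = 0.0362).

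With wild type left out 8 ATG genes rose, with the strain labelled mre11delta left out 9, with rad50delta left out 8 and with spo11Y135F left out 14, of which 7, 9, 8 and 13 were among the 13 reported. In the same order 5.99%, 8.38%, 6.39% and 11.6% of all genes tested rose. Adding extraction method as a covariate gave 8 genes, against 6.32% of all genes tested, and leaves the time effect to the mutants, since the covariate varies within wild type only. Within the RNeasy pairs 14 ATG genes rose, 12 of the 13 reported together with ATG2 and ATG4, and 2 fell, ATG19 and ATG41, against 15.7% of all genes rising and 6.48% falling there. ATG1, ATG7, ATG23, ATG32, ATG39, ATG40 and ATG45 rose in all 15 alternative settings.

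**Figure D3:**
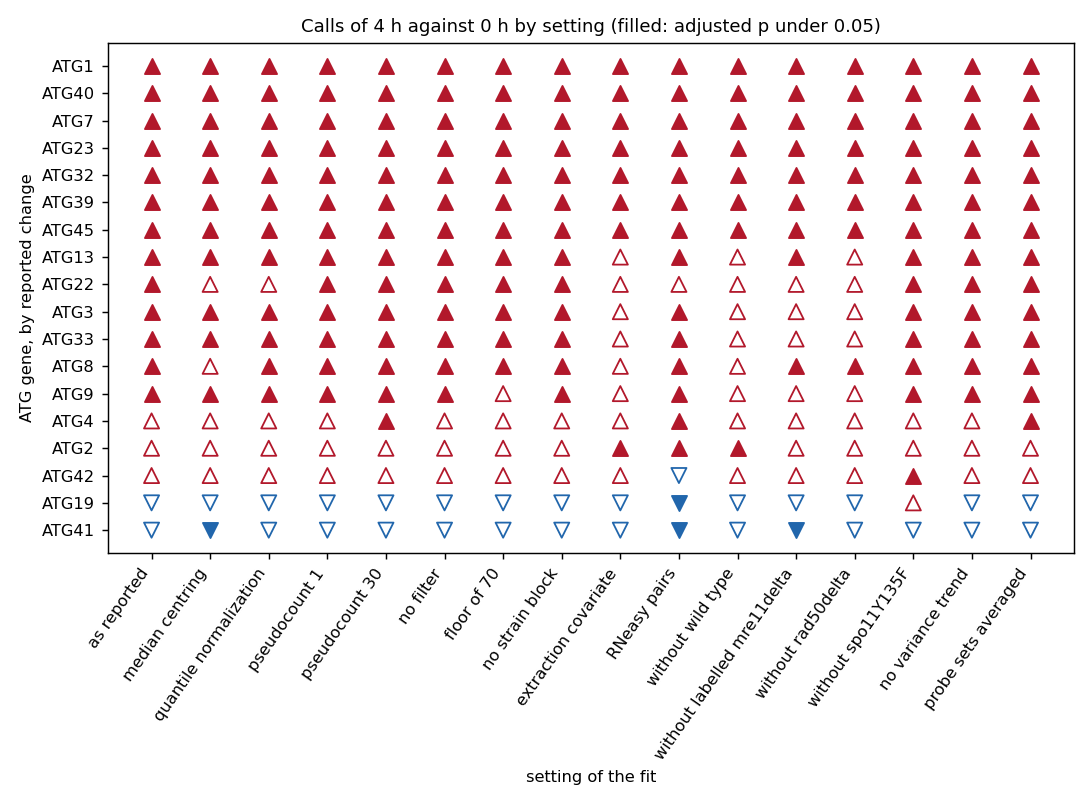
Each of the ATG genes called under any setting (rows, by reported change) in the fit as reported and in the 15 alternatives (columns). Upward red symbols stand for a positive change and downward blue ones for a negative change, and filled symbols for an adjusted p under 0.05. The top 7 rows are filled throughout, and ATG22 is open in 7 columns.

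Within single strains the ATG genes differed in how many were higher at 4 h. With 1 array at each time these are descriptions with no test. In wild type 19 of 36 members were at least 2-fold higher at 4 h, which is 52.8% against 15.5% of all genes tested, and 2 were at least 2-fold lower, which is 5.56% against 31.1%. In the arrays labelled mre11delta 33 were higher, 91.7% against 40.6%, and 0 lower against 10%. In rad50delta 21 were higher, 58.3% against 34.4%, and 1 was lower, 2.78% against 5.94%.

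In spo11Y135F 14 were at least 2-fold higher, 38.9% against 22.7%, and 8 were at least 2-fold lower, 22.2% against 26.2%. The 8 were ATG5, ATG11, ATG15, ATG19, ATG21, ATG31, ATG36 and ATG41. Relative to the median gene of the same strain, the median log2 difference of the members was 1.44 in wild type, 1.38 in the arrays labelled mre11delta, 0.52 in rad50delta and 0.66 in spo11Y135F. Wild type and the strain labelled mre11delta had Trizol at 0 h, and rad50delta and spo11Y135F had RNeasy. Strain and extraction method at 0 h cannot be told apart in these values. With median centring 23 members were at least 2-fold higher and 1 lower in wild type, against 20.7% and 24.7% of all genes tested. There were 21 higher and 0 lower in the arrays labelled mre11delta, against 18.0% and 24.7%, and 12 higher and 5 lower in rad50delta, against 13.6% and 23.1%. In spo11Y135F 14 were higher and 8 lower, against 21.6% and 28.1%.

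**Figure D4:**
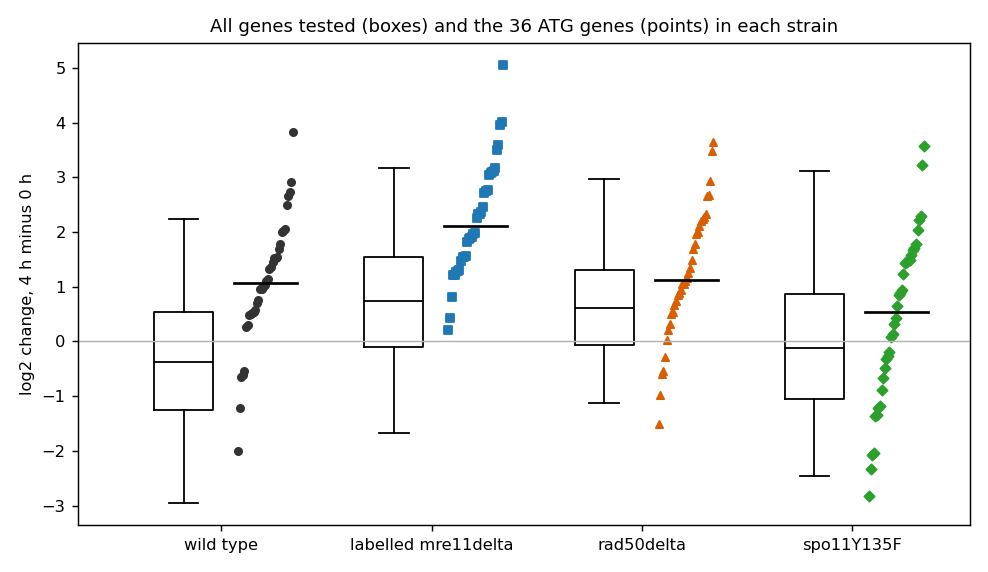
Log2 change from 0 h to 4 h in each strain, with 1 array at each time. Boxes show the quartiles and median of all 5475 genes tested with whiskers at the 5th and 95th percentile, points show the 36 ATG genes in rising order, and black bars their median. The bar lies above the box median in all 4 strains, and in spo11Y135F the points reach down to -2.82.

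The 0 h levels differed between strains along the same line as the extraction. Both RNeasy arrays at 0 h, rad50delta and spo11Y135F, lay above both Trizol arrays, wild type and the one labelled mre11delta, for 27 of 36 members, which is 75.0% against 32.8% of all genes tested. Strain and extraction method cannot be told apart in this comparison. The separation was at least 2-fold for 7 members, ATG7, ATG8, ATG18, ATG20, ATG32, ATG36 and ATG42, and 8.53% of all genes tested. ATG10 was the only member with both RNeasy arrays below both Trizol arrays, at 136 and 122 against 413 and 339.9. Of all genes tested 35.9% lay below in this way.

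Markers of the middle phase of meiosis also differed between strains at 4 h. Of 5 such markers 4 rose, and their summed signal at 4 h ran from 353 to 16969. SPS1, a kinase of this phase, read 145, 44.3, 3471 and 6495 at 4 h. The cyclin gene CLB1 was the marker that did not pass (limma adjusted p = 0.218). It read 107.7, 112.3, 119.3 and 116.1 at 0 h and 40.0, 55.7, 1607 and 2865 at 4 h. These markers were thus highest in spo11Y135F and rad50delta, and their part in the ATG signals was not tested. Of 7 markers of haploid cells 2 rose, MFA1 and STE3, where 10.6% of all genes tested rose. The 5 not called had log2 changes from -0.28 in HO to 0.78 in STE2. Summed signals of the 7 were 291 to 498 at 0 h and 923 to 1650 at 4 h, of which MFA1 alone gave 509.9 to 899.2 at 4 h. Unlike the other haploid markers, MFA1 was read from a probe set that is not a plain gene-specific one. The part of these markers in the ATG signals was not tested either. Both rad50delta and spo11Y135F lay above the other two at 4 h for ATG3, ATG4, ATG8, ATG32, ATG33, ATG39 and ATG40, which is 19.4% of the members against 24.6% of all genes tested.

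**Figure D5:**
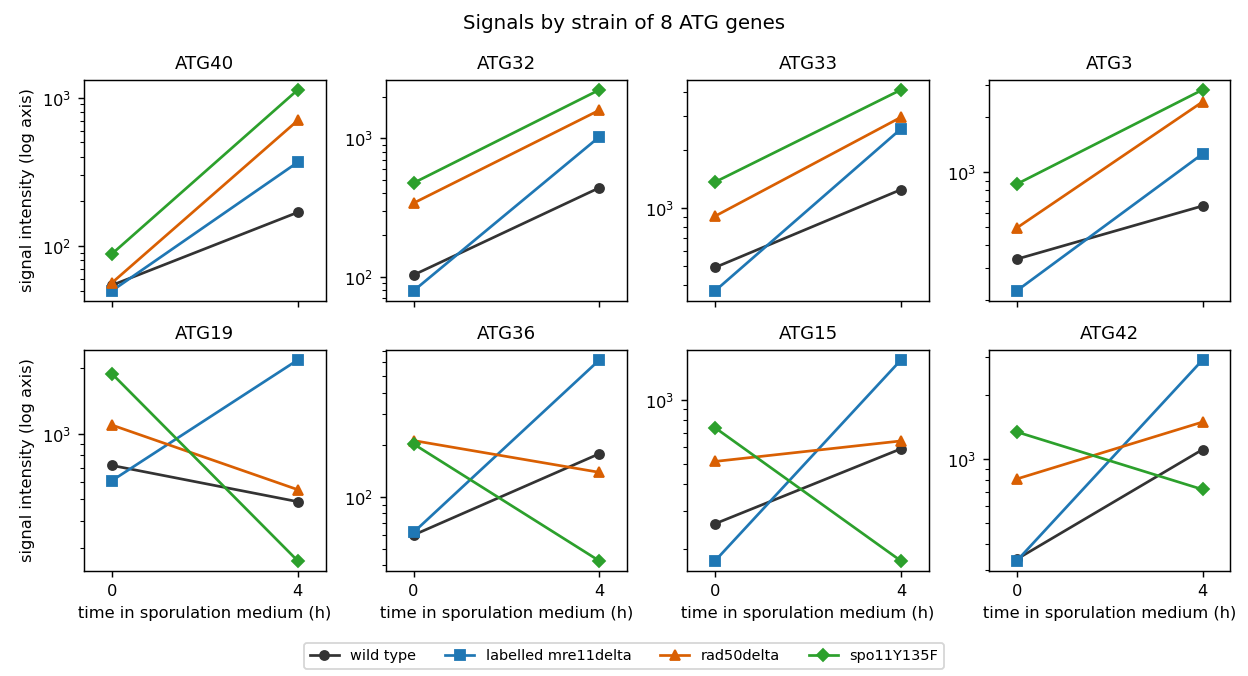
Signal on a log axis at 0 h and 4 h of 4 ATG genes that rose (ATG40, ATG32, ATG33 and ATG3, top) and 4 that did not pass the test (ATG19, ATG36, ATG15 and ATG42, bottom), with 1 line per strain. All lines climb in the top row, and in the bottom row the spo11Y135F line descends and the line labelled mre11delta climbs.

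Set against wild type at the same time, with 1 array each and the same wild-type array in all comparisons of a time, these differences have no test. At 0 h spo11Y135F was at least 2-fold above wild type for 19 of 36 members, or 52.8%, against 18.7% of all genes tested, and below for 1 member against 14.2%. In rad50delta 8 members were above against 9.32%, and 1 was below against 21.8%. The array labelled mre11delta had 0 members above against 0.584% and 1 below against 2.36%. The wild-type array at 0 h was a Trizol array, as was the one labelled mre11delta.

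At 4 h the medians of the members lay near or below those of all genes, at 0.92 against 0.94 in the array labelled mre11delta, 0.44 against 0.65 in rad50delta and -0.03 against 0.32 in spo11Y135F, in log2 over wild type. At least 2-fold above wild type were 15 members in the array labelled mre11delta against 46.5% of all genes tested, 6 in rad50delta against 29.7% and 8 in spo11Y135F against 30.6%. Below wild type were 0 members in the array labelled mre11delta against 1.55%, 0 in rad50delta against 0.457% and 6 in spo11Y135F against 11.2%. The array labelled mre11delta was the only Trizol array at 4 h, so its strain and extraction method cannot be told apart here.

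Some members stood apart from the other 3 strains at the same time by at least 2-fold, again with 1 array each and no test. At 4 h, 5 members were above the rest in the array labelled mre11delta, which is 13.9% against 12.2% of all genes tested, and the gap was widest for ATG19 at 3.89-fold. That array was the only Trizol array at 4 h, so strain and extraction method cannot be told apart there. In spo11Y135F 5 members were below the rest, which is 13.9% against 9.41%, with ATG15 at 175 against 588 to 1537 and ATG11 at 36.8 against 132 to 255. In wild type 4 members were below the rest, which is 11.1% against 13.9%, with ATG2 at 18.2 against 146 to 245. These shares are close to those of all genes. At 0 h only ATG22 and ATG39 stood apart, both above the rest in spo11Y135F, where 3.27% of all genes did. With either median centring or quantile normalization ATG2 still stood apart at 4 h in wild type and ATG19 in the array labelled mre11delta. So did ATG11, ATG15 and ATG36 in spo11Y135F, while ATG22 and ATG39 no longer did at 0 h. In the order of these scalings, 1.55% and 2.01% of all genes tested lay below in wild type. The shares were 2.76% and 3.29% above in the array labelled mre11delta, and 7.54% and 8.38% below in spo11Y135F. With median centring ATG40 also stood above the rest in spo11Y135F at 4 h, where 9.02% of all genes tested did.

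Of 51 tested partner genes without an ATG name, 1 rose and 0 fell by limma, and at an unadjusted p under 0.05 the counts were 10 higher and 0 lower. Over all genes tested 10.6% rose and 4.02% fell, and at the unadjusted threshold 18.2% were higher and 8.84% lower. Their median log2 change was 0.43. The gene that rose was VAM7, a SNARE protein for fusion with the vacuole, which read 104, 82.9, 162 and 192 at 0 h and 228, 373, 749 and 1785 at 4 h. The groups do not overlap, and VAM7 rose by 2.12 ± 0.56 (limma adjusted p = 0.0127), which no longer passed with rad50delta left out. None of the 14 nutrient signalling genes passed, among them the TORC1 kinase gene TOR1 at 0.47 ± 0.54, nor did any of the 4 subunit genes of the phosphatidylinositol 3-kinase, with VPS30 at 1.27 ± 0.57.

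Among the 7 genes of receptors and cargo without an ATG name, AMS1, a mannosidase carried by Atg19 and Atg34, was higher at 4 h in all 4 strains at 1.28 ± 0.51 (limma adjusted p = 0.103), and APE1, the main cargo of Atg19, had a change of 0.13 ± 0.56. APE1 read 964, 808, 1398 and 2275 at 0 h and 1008, 3418, 1113 and 919 at 4 h, so that, as with ATG19, the arrays labelled mre11delta were far higher at 4 h and the spo11Y135F arrays lower. The transcription regulators held no call in 8 genes, with the repressor UME6 at 0.74 ± 0.53 and the histone demethylase RPH1 at 0.99 ± 0.57. Both are known repressors of ATG genes in growing yeast. The vacuolar protease genes PEP4 and PRB1, which break down what autophagy delivers, had changes of 0.50 ± 0.32 and 1.00 ± 0.46.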

How the data were processed

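The authors deposited 1 MAS5 signal intensity per probe set and array on a linear scale, per the submitters' processing notes; its version and the scaling between arrays: not given in the sources used here. Of 9335 probe sets, 6504 carry 1 gene, 328 several and 2503 no gene name in the platform annotation. All 5656 genes matched the RefSeq annotation (R64) by gene identifier, used for names only. Intensities entered as log2 of the signal plus 7, the 10th percentile of all values, and 5475 genes were tested, those whose mean signal reached 21. Times were compared with limma 3.58.1 in R 4.3.3 over the 8 arrays, with strain as block, a mean-variance trend (3 residual degrees of freedom before moderation), two-sided p-values and an adjustment after Benjamini and Hochberg at 0.05. The number of arrays limits the precision, and p-values measure the spread between strains, which may be technical. The pairing comes from the labels, which give both arrays of a genotype the same strain; same-strain deviations from the time means correlated at -0.14, -0.02, 0.07 and -0.13. Strains were compared without a test. Named were all members, the partner genes that passed, genes singled out afterwards (TOR1, VPS30, AMS1, APE1, UME6, RPH1, PEP4 and PRB1) and marker genes. Members and lists were chosen with earlier results of these data known. Alternatives were 2 scalings, 2 pseudocounts, 2 filters, no block, an extraction covariate, the RNeasy pairs, each strain left out, no trend and averaged probe sets. Promoter and protein sequences were not used here, so no motif search was run.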

Additional observations from a re-analysis of the deposited data

Results flagged for a closer look

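In each time group of 4 arrays, and in the 4 changes over time, a strain was picked out where its gap to the nearest other strain took up more of the range than Dixon's critical value allows. Of 108 such groups of the ATG genes 6 held an outlying strain, and chance alone gives about 1 in 20. Over all genes tested the shares were 4.84% for signals at 0 h, 5.11% at 4 h and 3.54% for changes.

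ATG27, of the Atg9 vesicles, read 316 at 0 h in rad50delta against 547 to 599.5 in the other strains. ATG21, the phosphoinositide-binding protein, read 274 at 4 h in spo11Y135F against 611 to 668. The log2 change of ATG32, the mitophagy receptor, was 3.58 in the arrays labelled mre11delta against 2.02 to 2.22, and that of ATG45 was 3.09 there against 2.00 to 2.06. These values carry no further scaling, and the median gene changed by -0.37, 0.74, 0.61 and -0.12 in the strains in the usual order. The part of such shifts of whole arrays in these outlying values was not tested.

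ATG2 and ATG21 had 1 strain at least 2-fold lower at 4 h and the other 3 at least 2-fold higher, and both strains were also outlying in their change. For ATG2, the lipid transfer protein, the log2 change was -1.22 in wild type against 1.96 to 2.28 in the others, and for ATG21 it was -1.22 in spo11Y135F against 1.04 to 1.47. These differences between strains were not tested, since each strain has 1 array per time. Wild type is the strain whose 2 arrays differ in extraction method, and its part in the ATG2 difference was not tested.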

How the results depend on the processing

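All 13 ATG genes that rose kept a positive change in each of the 15 alternatives, and 169 of 195 of their results kept the call while 26 lost it. Among the other 23 ATG genes 11 results passed the threshold and 17 changed sign. With extraction method as a covariate 346 genes rose and 36 fell, 8 of the risers ATG genes. With median centring 559 genes and 1 ATG gene fell, with quantile normalization 393 genes, and within the RNeasy pairs 355 genes and 2 ATG genes. With 1 strain left out, 328 to 637 genes and 8 to 14 ATG genes rose, 36 to 264 genes and 0 to 1 ATG genes fell, and 0 to 5 partner genes rose. With no replicate block 615 genes rose and 205 fell, 13 ATG genes rose, and 2 partner genes rose instead of 1, as they did with quantile normalization. No ATG call was changed by dropping the block. Within the RNeasy pairs the change turned negative for ATG11 (-0.25), ATG29 (-0.01), ATG21 (-0.09), ATG20 (-0.15), ATG36 (-1.33), ATG15 (-0.86) and ATG42 (-0.0043). ATG10 turned negative with median centring (-0.16) and quantile normalization (-0.11), and ATG31 positive with a pseudocount of 30 (0.02). With 1 strain left out, changes ran from -0.55 to 0.42 for ATG31, -0.39 to 0.28 for ATG5, -0.11 to 0.51 for ATG10, -1.44 to 0.10 for ATG19, -0.40 to 1.35 for ATG36 and -0.19 to 1.52 for ATG15. The cause was not tested. The settings without wild type or with the extraction covariate use the mutants alone, and the RNeasy pairs only 4 arrays.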
